A study of Mus musculus with 6 samples.

Results

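The genes described are the 3 superoxide dismutases (Sod1, Sod2 and Sod3), catalase (Cat) and the 6 peroxiredoxins (Prdx1 to Prdx6). They were taken by symbol, as the 10 rows of the deposited table of normalized counts that bear these names, out of 24935 genes in all. The mRNA came from the left hippocampus of C57BL/6 mouse pups of both sexes at postnatal day (P) 14. Pups and their dams had breathed either 85% O2 in a normobaric chamber or room air from P2 to P14, with 3 libraries in the hyperoxia-exposed group and 3 in the air-exposed group. No other agent or allele is named in the labels or methods, and nothing in the sources used here ties a library to a litter, a dam or a sex, so the tests measure the spread between these libraries. Library numbers (1, 2, 3 in each group) are those of the deposited columns and do not name animals.

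Superoxide is a by-product of the respiratory chain and the product of NADPH oxidases. Superoxide dismutases turn it into hydrogen peroxide, each in its own compartment: the copper-zinc enzyme SOD1 in the cytosol and the space between the mitochondrial membranes, the manganese enzyme SOD2 in the mitochondrial matrix, and the secreted copper-zinc enzyme SOD3 outside the cell. Hydrogen peroxide is then removed by catalase in peroxisomes and by the peroxiredoxins, which are reduced again mainly by thioredoxin and also serve as sensors of peroxide. Brain tissue is known for a low catalase activity compared with liver, and for peroxiredoxins that differ in level between neurons and glia.

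Each library held between 30384052 and 38746972 reads on genes. All 10 genes passed the filter for testing, a mean normalized count of at least 10. Of the 17778 genes tested, 30.5% differed between the groups (limma, Benjamini-Hochberg adjusted p under 0.05, the threshold used throughout), 14.9% being higher and 15.6% lower in hyperoxia-exposed mice, and the groups did not overlap for 46.1%. Hyperoxia library 2 stood apart from the rest, at 38.73 on the second principal component, against -22.56 to 5.455 for the other 5 libraries. The tissue label was checked against 7 markers of hippocampal regions chosen after the data were seen, and each was present in every library, as for Prox1, a granule cell gene, at 5181 or more and Wfs1, a CA1 gene, at 4554 or more. In bulk tissue a lower mRNA level from fewer cells of a type and one from less RNA per cell cannot be told apart.

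RefSeq promoter windows on the build GRCm38.p6 were found for 8 of the 10 genes, Sod3 and Prdx6 being without one. The windows were searched for the core of the antioxidant response element, the site bound by the transcription factor NRF2, spelled TGACNNNGC on one strand or GCNNNGTCA on the other. It was present in 2 of the 8 windows, those of Sod1 and Prdx1, and in 12.39% of 32851 windows of the same 300 bases over all genes. The 250 bases before the start of these 2 genes are shown because one fell and the other rose in hyperoxia-exposed mice, with the match in capitals. Both genes lie on the plus strand, and the windows are chr16:90220512-90220761 for Sod1, where the match begins 56 bases before the start, and chr4:116685349-116685598 for Prdx1, where it begins 133 bases before it. In both windows the match is in the reverse orientation.
Sod1: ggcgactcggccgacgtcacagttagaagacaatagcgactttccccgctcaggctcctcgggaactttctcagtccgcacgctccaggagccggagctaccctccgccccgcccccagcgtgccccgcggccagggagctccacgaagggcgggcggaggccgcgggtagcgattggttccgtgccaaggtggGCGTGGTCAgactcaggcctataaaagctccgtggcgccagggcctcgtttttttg
Prdx1: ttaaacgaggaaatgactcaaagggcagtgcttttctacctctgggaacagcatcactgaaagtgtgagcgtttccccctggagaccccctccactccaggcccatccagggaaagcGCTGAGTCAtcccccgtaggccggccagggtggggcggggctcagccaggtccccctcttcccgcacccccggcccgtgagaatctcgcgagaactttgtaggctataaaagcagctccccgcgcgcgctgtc
The matches are matches of letters, and no binding was measured.

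Of the 10 genes, 6 differed between the groups (limma, adjusted p under 0.05), 3 of them lower (Sod1, Sod3 and Prdx5) and 3 higher (Prdx1, Prdx2 and Prdx4) in hyperoxia-exposed mice. These counts stand beside the 30.5% of all tested genes that differed, with 14.9% higher and 15.6% lower. Sod2, Cat, Prdx3 and Prdx6 did not pass the threshold. The groups did not overlap for 7 of the 10, the 6 named and Sod2, beside 46.1% of all tested genes. The median log2 fold change of the 10 was 0.16, and that of all tested genes was -0.01. With 3 libraries against 3, an exact permutation test cannot go below 0.1, and it gave 0.1 for each of the 7 genes without overlap.

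**Figure D1:**
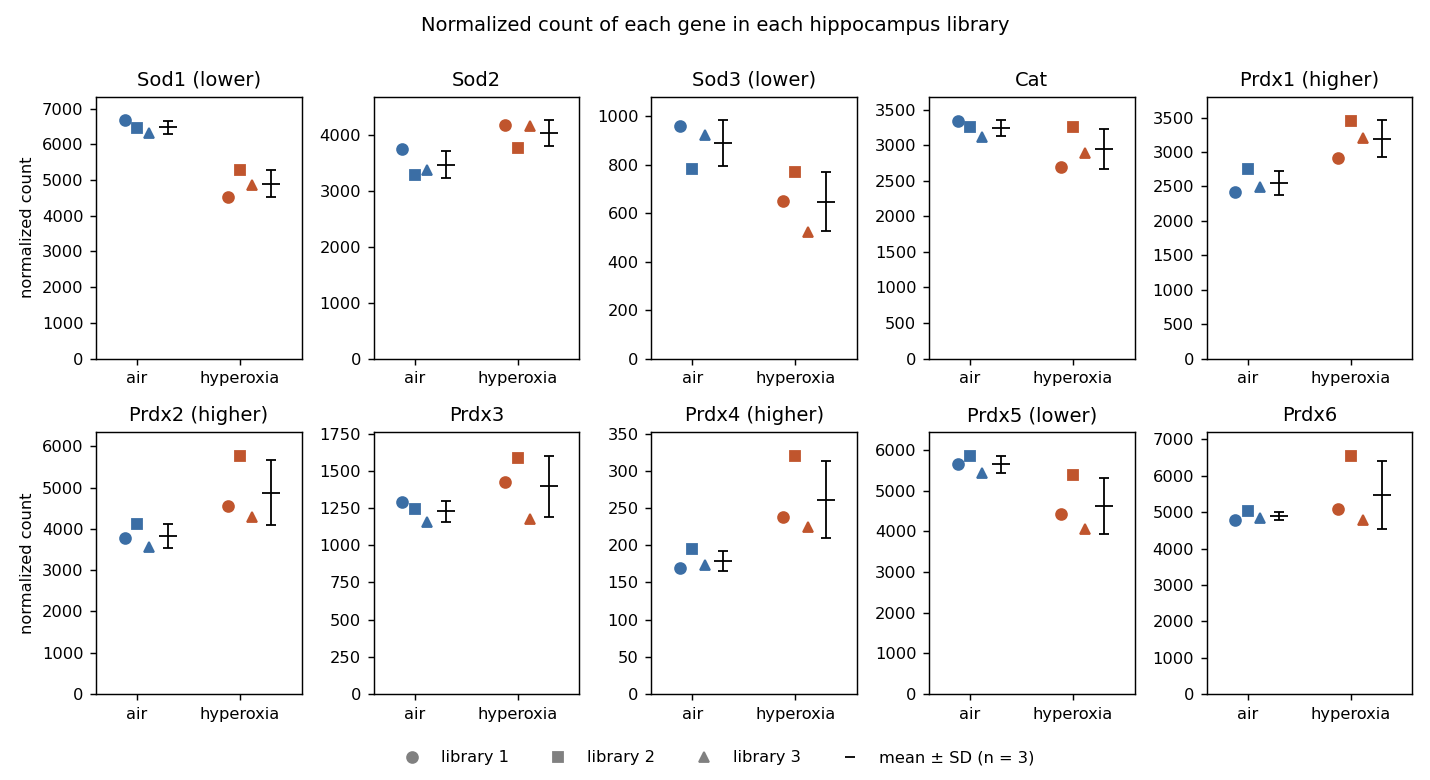
Normalized count (vertical axis, from 0) of each gene in the 3 air libraries (blue) and the 3 hyperoxia libraries (orange), with marker shapes for the library number and bars for the mean ± SD. Sod1 lies between 6301 and 6666 in air and between 4527 and 5277 in hyperoxia, and the square of hyperoxia library 2 is the highest of the 3 hyperoxia points in every panel but that of Sod2.

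Sod1 (ENSMUSG00000022982.9, chr16:90220754-90226329, plus strand, GRCm38) was lower in hyperoxia-exposed mice in every analysis run. Its normalized counts were 6666, 6463 and 6301 in the air libraries, in the order of their numbers, and 4527, 5277 and 4865 in the hyperoxia libraries. Every hyperoxia library lay below every air library, with means of 4889 ± 376 and 6476 ± 183 (SD, n = 3 each). Sod1 fell by 24.6%, a log2 fold change of -0.41 (SE 0.08, 95% interval -0.58 to -0.24, limma adjusted p = 0.0042). It passed the threshold in 17 of 17 alternative analyses. Leaving out 1 library at a time moved the log2 fold change between -0.46 and -0.35, and taking out each library's trend on the length and GC content of the principal transcript brought it to -0.26. With the longest transcript instead, removal of the trends brought the log2 fold change to -0.46.

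Sod2 (ENSMUSG00000006818.4, chr17:13006846-13040063, plus strand), the mitochondrial enzyme, moved the other way without passing the threshold. Its normalized counts were 3745, 3290 and 3372 in the air libraries and 4172, 3764 and 4151 in the hyperoxia libraries. All hyperoxia libraries were above all air libraries, although hyperoxia library 2 exceeded the highest air library by little. The means were 3469 ± 243 and 4029 ± 230 (SD, n = 3 each), a log2 fold change of 0.22 (SE 0.08, 95% interval 0.04 to 0.39, limma adjusted p = 0.062). It passed the threshold with DESeq2 (adjusted p = 0.044) and without hyperoxia library 2 (log2 fold change 0.26, limma adjusted p = 0.0096). Sod2 was the 1 gene of the 10 whose direction did not hold in every alternative: after removal of the length and GC trends it was at -0.0072 with the longest transcript (adjusted p = 0.95) and -0.033 with the principal transcript (adjusted p = 0.74). The trend fitted for a transcript of its length and GC content was itself 0.25 higher on the log2 scale in the hyperoxia libraries than in the air libraries.

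Sod3 (ENSMUSG00000072941.5, chr5:52363791-52371418, plus strand), the extracellular enzyme, was the lowest dismutase per length. Its normalized counts were 962, 785 and 924 in air and 652, 769 and 523 in hyperoxia. The groups parted narrowly, air library 2 and hyperoxia library 2 being close to each other. The means were 890.02 ± 93.2 and 648 ± 123 (SD, n = 3 each), a log2 fold change of -0.47 (SE 0.14, 95% interval -0.78 to -0.16, limma adjusted p = 0.031). It passed in 12 of 17 alternatives and missed the threshold without air library 1 (adjusted p = 0.13), air library 3 (0.098), hyperoxia library 1 (0.076) or hyperoxia library 3 (0.061), and in limma without a mean-variance trend (0.084).

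Cat (ENSMUSG00000027187.10, chr2:103453849-103485160, minus strand) had normalized counts of 3337, 3259 and 3119 in air and 2694, 3255 and 2888 in hyperoxia. Hyperoxia library 2 lay within the range of the air libraries and the other hyperoxia libraries lay below it. The means were 3238 ± 110.4 and 2946 ± 285 (SD, n = 3 each), a log2 fold change of -0.14 (SE 0.08, 95% interval -0.33 to 0.04, limma adjusted p = 0.22, exact permutation p = 0.2). Without hyperoxia library 2 it was called lower, at a log2 fold change of -0.21 (limma adjusted p = 0.018), the 1 alternative of 17 in which it passed.

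Prdx1 to Prdx4 are the typical peroxiredoxins with a pair of working cysteines, of which PRDX1 and PRDX2 are cytosolic, PRDX3 mitochondrial and PRDX4 an enzyme of the endoplasmic reticulum and secretory pathway. Prdx1 (ENSMUSG00000028691.12, chr4:116685544-116700822, plus strand) had normalized counts of 2422, 2748 and 2487 in air and 2917, 3452 and 3203 in hyperoxia. Each hyperoxia library was above each air library, with means of 3191 ± 268 and 2552 ± 172 (SD, n = 3 each). Prdx1 rose by a log2 fold change of 0.32 (SE 0.08, 95% interval 0.13 to 0.51, limma adjusted p = 0.019), which is 1.25-fold. It passed in 14 of 17 alternatives and missed the threshold on leaving out air library 1 (adjusted p = 0.090) or 3 (0.074) and in limma without the trend (0.060).

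Prdx2 (ENSMUSG00000005161.15, chr8:84969587-84974834, plus strand), abundant in neurons and red blood cells, had normalized counts of 3786, 4126 and 3563 in air and 4564, 5772 and 4286 in hyperoxia. The groups did not overlap, and hyperoxia library 2 was well above the other hyperoxia libraries. Prdx2 rose from 3825 ± 283 to 4874 ± 789.7 (SD, n = 3 each), a log2 fold change of 0.34 (SE 0.11, 95% interval 0.09 to 0.59, limma adjusted p = 0.044). Without hyperoxia library 2 the rise was smaller, 0.21, and still passed (limma adjusted p = 0.034), whereas leaving out air library 1 (adjusted p = 0.13), air library 2 (0.071), air library 3 (0.15) or hyperoxia library 1 (0.074), quantile normalization (0.053) and limma without the trend (0.11) each lost the call. Its exons share 177 bases with Rnaseh2a and 173 with Junb, genes of the other strand with mean normalized counts of 346.3 and 1134, and the strand setting of the counting is not known here. Markers of red blood cells did not part the groups, with a summed normalized count of 4334 to 5724 in air and 4907 to 6795 in hyperoxia, the highest in hyperoxia library 2. Of the 8 tested, 1 was called higher and 1 lower, beside 14.9% and 15.6% of all tested genes. The part of red blood cells in the Prdx2 values was not tested.

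Prdx3 (ENSMUSG00000024997.7, chr19:60864051-60874556, minus strand) had normalized counts of 1294, 1242 and 1154 in air and 1428, 1584 and 1177 in hyperoxia. Hyperoxia library 3 lay among the air libraries and the other hyperoxia libraries above them. The log2 fold change was 0.17 (SE 0.11, 95% interval -0.07 to 0.42, limma adjusted p = 0.26, exact permutation p = 0.3), and only without hyperoxia library 3 did it pass the threshold, at 0.29 (limma adjusted p = 0.035).

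Prdx4 (ENSMUSG00000025289.15, chrX:155323918-155340754, minus strand) had the lowest level of the 10 genes, with 169 to 283 reads per library. Its normalized counts were 169.5, 194 and 173.5 in air and 238, 320.4 and 225 in hyperoxia. All hyperoxia libraries exceeded all air libraries, and hyperoxia library 2 was the highest. Prdx4 rose from 179 ± 13.3 to 261 ± 51.8 (SD, n = 3 each), a log2 fold change of 0.53 (SE 0.15, 95% interval 0.19 to 0.86, limma adjusted p = 0.025), which is 1.44-fold, and 0.37 without hyperoxia library 2. It passed in 13 of 17 alternatives. Those in which it did not were leaving out air library 1 (adjusted p = 0.095), 2 (0.053) or 3 (0.079) and limma without the trend (0.053).

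Prdx5 (ENSMUSG00000024953.16, chr19:6906697-6910106, minus strand), an atypical peroxiredoxin of mitochondria, peroxisomes and cytosol, went the opposite way to Prdx1, Prdx2 and Prdx4. Its normalized counts were 5643, 5854 and 5439 in air and 4430.4, 5374 and 4055 in hyperoxia. Hyperoxia library 2 was the closest to the air range and still under its lowest value. Prdx5 fell from 5645 ± 208 to 4620 ± 680 (SD, n = 3 each), a log2 fold change of -0.30 (SE 0.10, 95% interval -0.52 to -0.07, limma adjusted p = 0.049). This call was the least secure of the 6: it held in 5 of 17 alternatives and was lost with TMM scaling (adjusted p = 0.051), edgeR (0.061), quantile normalization (0.080), no filter on low values (0.052) and limma without the trend (0.12). It was also lost on leaving out air library 1 (adjusted p = 0.14), air library 2 (0.16), air library 3 (0.094), hyperoxia library 1 (0.14) or hyperoxia library 3 (0.12), and on removal of the length and GC trends, which brought the log2 fold change to -0.14 (0.11) with the longest and -0.12 (0.093) with the principal transcript. Its exons share 409 bases with Trmt112 on the other strand, which had a mean normalized count of 388.

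Prdx6 (ENSMUSG00000026701.15, chr1:161240112-161251219, minus strand), the peroxiredoxin with a single working cysteine, which is reduced by glutathione and is abundant in astrocytes, had normalized counts of 4796, 5019.8 and 4852 in air and 5095, 6549.5 and 4786 in hyperoxia. Hyperoxia library 3 was the lowest of all 6 libraries and hyperoxia library 2 far above the rest. The log2 fold change was 0.15 (SE 0.11, 95% interval -0.09 to 0.39, limma adjusted p = 0.32, exact permutation p = 0.4), and it passed the threshold in none of the 17 alternatives. Without hyperoxia library 2 the log2 fold change was 0.01 (limma adjusted p = 0.86). The annotation also holds Prdx6b and pseudogenes of Prdx2 and Prdx6, for which the table used has no row, so reads that fit both copies may have been counted in either or in neither.

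**Figure D2:**
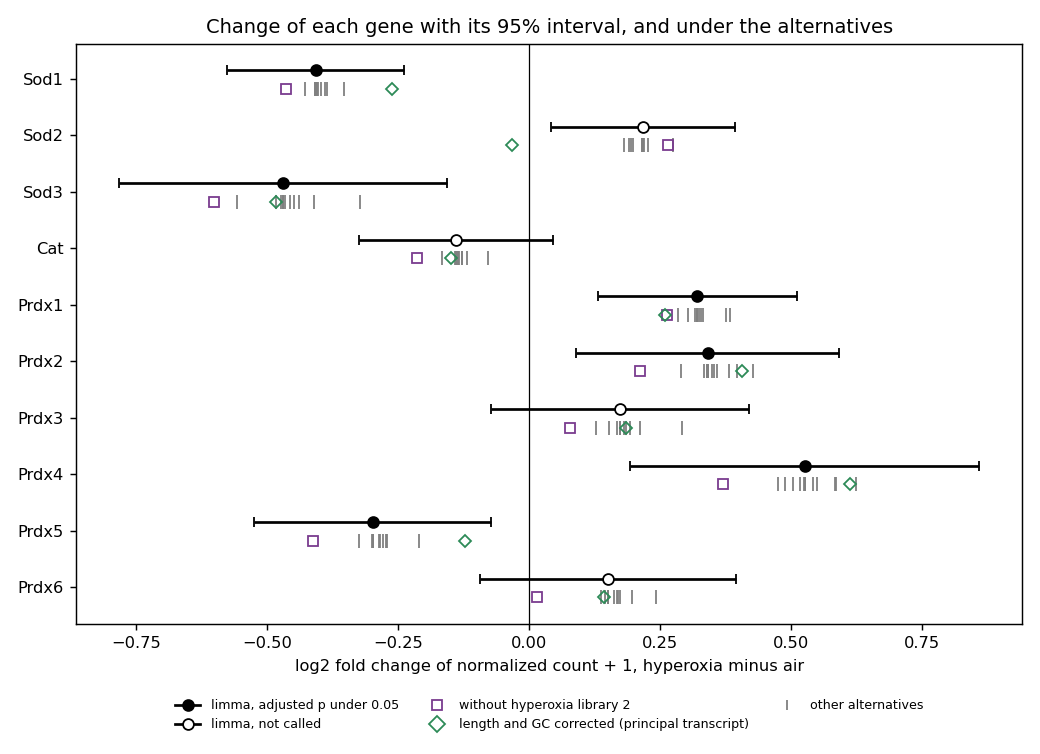
Log2 fold change of each gene, hyperoxia minus air, with its 95% interval (circles, filled where the limma adjusted p was under 0.05) and below it the values under the alternatives. The diamond is the correction for length and GC with the principal transcript, and that with the longest transcript is not drawn. Sod1 stayed between -0.46 and -0.26, and Sod2 is the 1 gene whose correction for length and GC (diamond) lies across 0 from its uncorrected value.

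Hyperoxia library 2 had the highest value of the 3 hyperoxia libraries for 9 of the 10 genes, all but Sod2, for which it had the lowest. Over all tested genes it was the highest of the 3 for 40.2% and the lowest for 39.3%. On the log2 scale it exceeded the mean of hyperoxia libraries 1 and 3 by 0.17 for Sod1, 0.18 for Prdx1, 0.22 for Cat, 0.29 for Prdx3, 0.34 for Prdx5, 0.38 for Prdx2, 0.40 for Sod3, 0.41 for Prdx6 and 0.47 for Prdx4, and for Sod2 the difference was -0.14. For the genes that fell, this library was therefore nearer to air than the other hyperoxia libraries were, and for Prdx1, Prdx2 and Prdx4 it was farther from air. Without it, 8 of the 10 genes passed the threshold, against 6 with it, and over all tested genes 43.6% passed, against 30.5% with it.

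Because 9 of the 10 genes went up together in that library, members were also set against each other within each library, in 6 ratios chosen after the data were seen. The ratio of normalized counts of Sod2 to Sod1, the matrix to the cytosolic dismutase, was 0.562, 0.509 and 0.535 in air and 0.922, 0.713 and 0.853 in hyperoxia. The ratio of Prdx1 to Sod1 was 0.363, 0.425 and 0.395 in air and 0.644, 0.654 and 0.658 in hyperoxia, with an SD of 7.83% of the mean in air, more than that of Prdx1 (6.75%) or Sod1 (2.83%) alone, and of 1.1% in hyperoxia, less than that of Prdx1 (8.39%) or Sod1 (7.68%) alone. The ratio of Prdx3 to Prdx5 was 0.229, 0.212 and 0.212 in air and 0.322, 0.295 and 0.290 in hyperoxia. These ratios, higher in every hyperoxia library than in any air library, rose by 0.62, 0.73 and 0.47 on the log2 scale, each with an exact permutation p of 0.1, the lowest possible, and 0.15 after Benjamini-Hochberg adjustment over the 6. Cat to Prdx5 also did not overlap, at 0.574 ± 0.0173 in air and 0.642 ± 0.0608 in hyperoxia (SD, n = 3 each), with the same exact p. By contrast Prdx1 to Prdx2 (0.668 and 0.661 on average) and Sod1 to Sod3 (7.33 and 7.70) overlapped, with exact permutation p of 0.9 and 0.6. The ratios were not corrected for the length and GC trends. With the principal transcript, the fitted trend itself differed between the groups (log2, hyperoxia minus air). It was 0.25 for Sod2, -0.15 for Sod1, 0.06 for Prdx1, -0.01 for Prdx3, -0.18 for Prdx5 and 0.01 for Cat. The ratio of Cat to Prdx5 had risen by 0.16 on the log2 scale. With the principal-transcript trends removed, the log2 fold changes of Cat and Prdx5 were close to each other, at -0.15 and -0.12. The ratios are built from the same values as the tests above and are no further support for them.

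**Figure D3:**
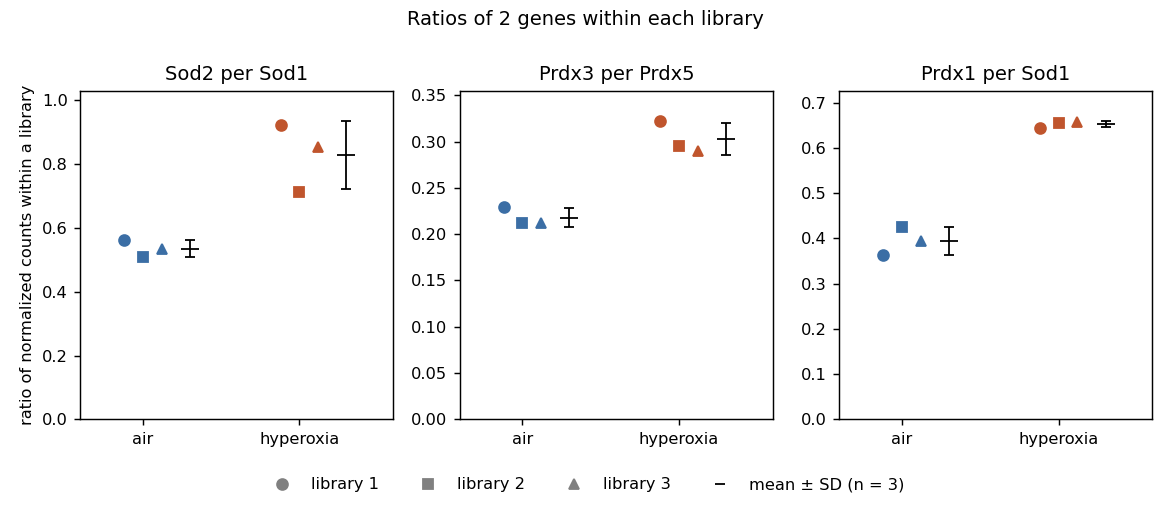
Ratio of the normalized counts of Sod2 to Sod1, Prdx3 to Prdx5 and Prdx1 to Sod1 (vertical axes, from 0) in each library, with the mean ± SD of each group. In each panel the 3 hyperoxia libraries lie above the 3 air libraries, and for Prdx1 to Sod1 the hyperoxia libraries lie between 0.644 and 0.658.

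Levels of different genes were compared per length, in TPM, the usual unit of reads per base of transcript scaled to 1 common total per library, from the recovered reads and the joined length of all annotated exons. In air, Prdx5 was the highest at 239 ± 6.59 TPM (SD, n = 3), followed by Sod1 at 148 ± 1.95, Prdx2 at 114 ± 7.39, Cat at 112 ± 1.93 and Prdx6 at 92.4 ± 2.65. Prdx1 at 76.1 ± 5.15 and Prdx3 at 75.5 ± 3.08 came next, then Sod2 at 31.4 ± 1.92, Sod3 at 21.6 ± 2.31 and Prdx4 at 7.72 ± 0.570. The libraries of Prdx2 and Cat overlapped, as did those of Prdx1 and Prdx3, so the order within these pairs is not settled, and the other neighbours in the order did not overlap. The order depends on the length used: by the principal transcript, chosen as an alternative after the data were seen, Sod1 (641 bases instead of 3970) led with 707 TPM and Prdx5 was next with 313. Of the 10 genes, 6 kept their place in air under that length, and Prdx4 was the lowest in air under both. Differences between the groups depended on the scaling. By exon length Cat was higher on average in hyperoxia, at 117 ± 4.93 TPM, unlike its normalized counts. Prdx5 and Sod3 overlapped in TPM, although their normalized counts did not. Prdx5 was at 206 to 240 in hyperoxia and 235 to 247 in air, and Sod3 at 15.2 to 19.7 in hyperoxia and 18.9 to 23.0 in air. Prdx3 (86.4 to 104 and 72.2 to 78.3) and Prdx6 (108 to 130 and 89.3 to 94.3) did not overlap in TPM, although their normalized counts did.

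**Figure D4:**
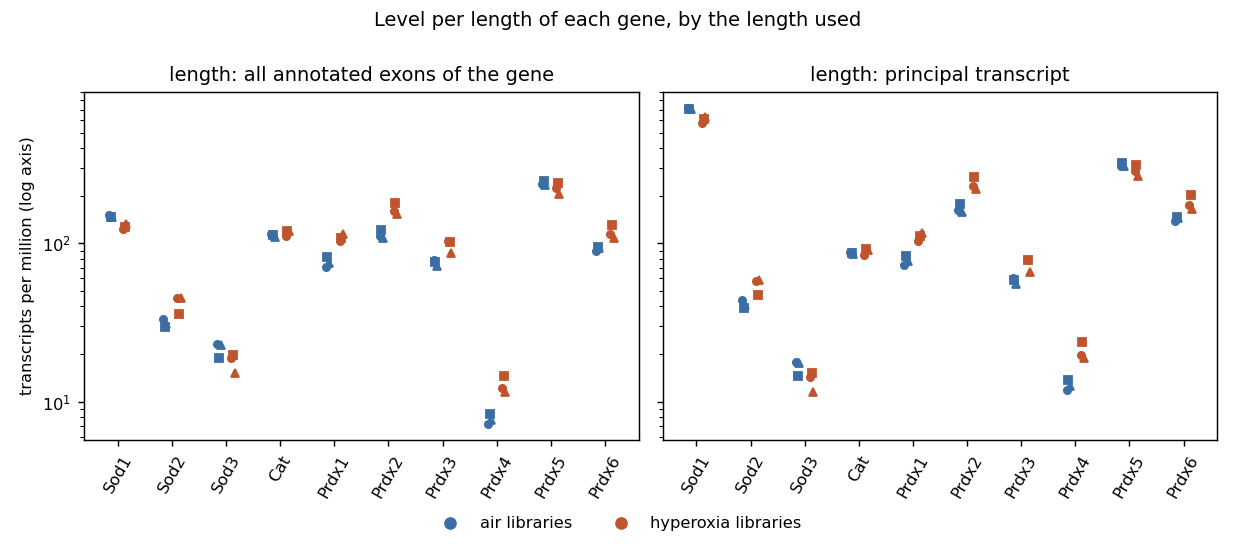
Level per length of each gene in TPM (vertical axis, logarithmic) in the air (blue) and hyperoxia (orange) libraries, with the length of all annotated exons on the left and of the principal transcript on the right. Prdx5 leads in air at 239 TPM on the left and Sod1 at 707 on the right, and Prdx4 is the lowest in air in both panels.

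Within each family the make-up of the summed level per length differed between the groups, a description added after the data were seen. Prdx5 made up 39.8%, 39.3% and 39.7% of the peroxiredoxin total in the air libraries and 31.1%, 30.9% and 30.3% in the hyperoxia libraries. The spread within a group was under 1 percentage point although Prdx5 itself varied more widely over the hyperoxia libraries. The share of Prdx2 was 18.8% ± 0.582 in air and 22.7% ± 0.476 in hyperoxia (SD, n = 3 each), that of Prdx1 12.6% and 15.1%, and that of Prdx4 1.28% and 1.76%, none of which overlapped, while that of Prdx3 (12.5% and 13.5%) overlapped. The share of Prdx6 (15.3% and 16.2%) did not overlap by this length, but it did with the longest transcript (20.1% and 20.8%). Among the dismutases Sod1 made up 73.6% ± 1.32 in air and 68.1% ± 1.97 in hyperoxia and Sod2 15.6% ± 0.521 and 22.4% ± 2.34, without overlap. Each share without overlap had an exact permutation p of 0.1. With the principal transcript the Prdx5 share was 40.6% and 31.6%, and the Sod2 share of the dismutases 5.41% and 8.14%. The size of these shares thus depends on the length used as divisor, and their direction did not. The shares were not corrected for the length and GC trends of each library. With the principal-transcript trends removed, the log2 fold changes of Sod1, Sod2, Prdx1 and Prdx5 were smaller in size, at -0.26, -0.033, 0.26 and -0.12. Those of Prdx2 and Prdx4 were larger, at 0.41 and 0.61 against 0.34 and 0.53 without the removal.

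The genes that keep these enzymes working, feed them or control them were taken as 7 lists, with 105 genes tested. Of these, 27 (25.7%) differed between the groups, 19 of them higher, against 30.5% of all tested genes, and the median log2 fold change was 0.07. Without hyperoxia library 2, 48 of the 105 were called (45.7%, beside 43.6% of all tested genes in that fit), among them 7 of the thioredoxin system instead of 3, 2 glutathione peroxidases instead of 0, 8 peroxisome genes instead of 3 and 12 regulators instead of 7. Without air library 1 or 2 the total was 17 or 16 (16.2% and 15.2%, beside 17.1% and 17.4% of all tested genes). After removal of the length and GC trends it was 39 (37.1%, beside 34.7% of all genes) with the longest and 37 (35.2%, beside 38.9%) with the principal transcript. Without air library 3, hyperoxia library 1 or hyperoxia library 3, 20.6%, 19.0% and 28.0% of all tested genes were called. Counts of single lists are to be read beside the share of all tested genes in the same fit. For counts at an unadjusted p no such share is given. The thioredoxin system, which reduces peroxiredoxins, and sulfiredoxin and the sestrins, long linked to their repair, had 2 of 15 genes higher, 1 lower and a median of 0.12. Txnip, which binds and inhibits thioredoxin, rose from 843 to 1403 (log2 fold change 0.74, limma adjusted p = 0.0012), Sesn3 rose from 2704 to 4170 (0.62, 0.0027, and 0.31 after removal of the principal-transcript length and GC trends, called hereafter the correction), and Sesn2 fell from 947 to 699 (-0.44, 0.0060). Cytosolic thioredoxin Txn1 was at 0.22 (limma adjusted p = 0.064), mitochondrial thioredoxin Txn2 at -0.28 (0.076), the reductases Txnrd1 and Txnrd2 at 0.12 (0.24) and 0.15 (0.31) and sulfiredoxin Srxn1 at -0.13 (0.29), none of which passed. With the correction 6 genes of this list were called instead of 3, among them Txn1 (0.26, adjusted p = 0.015). Without hyperoxia library 2, Txn2 (-0.40, limma adjusted p = 0.0010) and Srxn1 (-0.21, 0.028) were called lower.

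Of the glutathione peroxidases, which share the removal of peroxides, 5 of 8 were tested and 0 passed in limma, edgeR or DESeq2, with 1 at an unadjusted limma p under 0.05. With the correction 2 passed, and without hyperoxia library 3, 1 passed. Gpx1 was at -0.07 (limma adjusted p = 0.73) and Gpx4, which acts on lipid peroxides, at -0.19 (0.29), and with the correction they were at 0.10 and -0.0070. Without hyperoxia library 2 both were called lower, Gpx1 at -0.26 (limma adjusted p = 0.014) and Gpx4 at -0.36 (0.0036). Of 12 genes that supply copper and manganese to the dismutases, 4 were higher and 0 lower, beside 14.9% and 15.6% of all tested genes, with a median of 0.10. In limma, 7 had an unadjusted p under 0.05. Without air library 1, air library 2 or hyperoxia library 1, 2 were called (beside 17.1%, 17.4% and 19.0% of all tested genes), and 7 with the correction (beside 38.9%). The manganese and zinc importer Slc39a8 rose from 247 to 396 (0.68, limma adjusted p = 0.0017) and the copper importer Slc31a1 from 1213 to 1670 (0.46, 0.0024). The copper exporter Atp7a rose from 78.1 to 177 (1.12, 0.015), a call lost without air library 1 (adjusted p = 0.063), air library 2 (0.067) or hyperoxia library 1 (0.057) and in limma without the trend (0.052), and the manganese exporter Slc30a10 from 1136 to 1358 (0.26, 0.041), which was lost on leaving out any 1 library but hyperoxia library 2 (adjusted p 0.071 to 0.17), in limma without the trend (0.083) and with the correction (log2 fold change 0.075, 0.41). Ccs, the chaperone that loads copper into SOD1, was at -0.23 (limma adjusted p = 0.10) and Atox1 at 0.22 (0.27), neither passing, and with the correction at -0.057 (0.66) and 0.43 (0.0027).

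Of 16 tested genes that make superoxide or hydrogen peroxide, 3 were higher and 1 lower, with a median of 0.13, and 2 were called without air library 2, air library 3 or hyperoxia library 1. The endoplasmic reticulum oxidase Ero1lb rose from 453 to 595 (0.39, limma adjusted p = 0.010, and 0.24 with the correction) and Ero1l from 703 to 859 (0.29, 0.036), the latter call being lost without any 1 library but hyperoxia library 2 (adjusted p 0.075 to 0.14), in limma without the trend (0.070) and with the correction (log2 fold change 0.096, 0.30). The monoamine oxidases parted: Maoa rose from 1026 to 1280 (0.32, 0.019), lost without air library 2 (adjusted p = 0.090), air library 3 (0.074) or hyperoxia library 1 (0.079) and with the correction (log2 fold change 0.12, 0.33), and Maob fell from 871 to 673 (-0.37, 0.0069). Of 17 peroxisome assembly genes, 2 were higher and 1 lower, with a median of 0.02. Pex5, the receptor that carries catalase into peroxisomes, rose from 1582 to 1872 (0.24, limma adjusted p = 0.027), Pex13 was at 0.26 (0.025) and Pex10 fell from 598 to 440 (-0.45, 0.014). Without air library 1, air library 2 or hyperoxia library 1 all 3 of these calls were lost, at adjusted p from 0.056 to 0.11, and without air library 3 those of Pex5 (0.072) and Pex13 (0.092). The correction brought Pex13 to 0.031 (adjusted p = 0.78), limma without the trend lost Pex5 (0.058), and 5 genes of the list were called with the correction and 0 without air library 1, air library 2 or hyperoxia library 1.

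Of 20 transcription regulators of antioxidant genes, 4 were higher and 3 lower, with a median of -0.07. Maff, a small MAF partner of NRF2, rose from 47.8 to 104 (1.08, limma adjusted p = 0.0044), Foxo3, a known activator of Sod2 and Cat, from 1825 to 2756 (0.59, 0.0017), and Ppargc1a, a coactivator of mitochondrial genes, from 1487 to 2081 (0.48, 0.0032, and 0.20 with the correction, 0.048). Trp53 fell from 1387 to 941 (-0.56, 0.0032), and Keap1, which holds NRF2 in check, from 1829 to 1517 (-0.27, 0.024), a call lost without any 1 library but hyperoxia library 2 (adjusted p 0.057 to 0.097) and in limma without the trend (0.059). Nfe2l2, which encodes NRF2, was at -0.09 (limma adjusted p = 0.50). Of 20 tested NRF2 target genes, 4 were higher and 2 lower, with a median of 0.09. The cystine importer Slc7a11 rose from 1098 to 1798 (0.70, 0.0016, and 0.34 with the correction, 0.0048) and the exporter Abcc1 from 535 to 853 (0.67, 0.0012), while Gclc, the catalytic subunit of the first step of glutathione synthesis, fell from 2854 to 1999 (-0.51, 9.8e-04) and Ephx1 from 980 to 701 (-0.49, 0.0076).

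**Figure D5:**
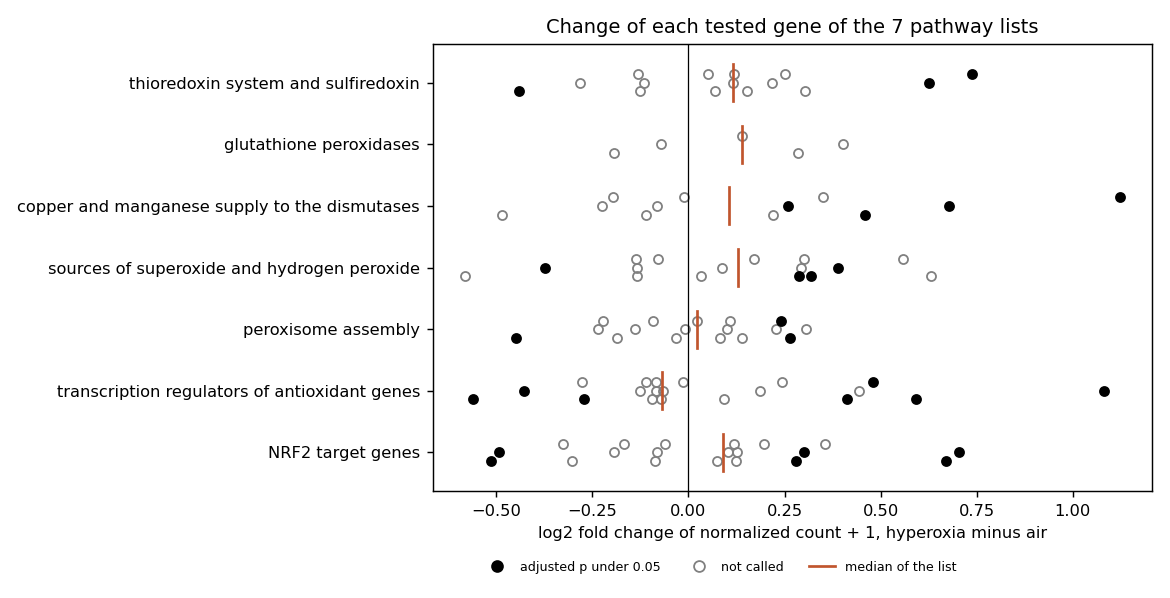
Log2 fold change, hyperoxia minus air, of each tested gene of the 7 lists (points, filled where the limma adjusted p was under 0.05), with the median of each list as a vertical bar. The medians lie between -0.07 and 0.14, with called genes on both sides of 0 in every list but those of copper and manganese supply (0 lower) and glutathione peroxidases (0 called).

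Marker genes of several cell types moved with the groups. The counts called in each list stand beside 14.9% higher and 15.6% lower of all tested genes. The summed normalized count of 12 oligodendrocyte markers was 222018 to 336807 in air and 153040 to 186046 in hyperoxia, with 11 of 12 called lower, and that of 12 neuron markers 449192 to 470816 and 374606 to 382256, with 6 called lower and 2 higher. Those of astrocytes (1.19 times air), endothelial cells (1.17), mural cells (1.15) and oligodendrocyte precursors (1.14) were higher in every hyperoxia library than in any air library, with 5, 6, 3 and 3 genes called higher and 2, 2, 0 and 0 lower out of 12, 12, 9 and 10 tested. Such sums weigh the most abundant markers most, and the median log2 fold changes of these lists were 0.06, 0.33, 0.08 and 0.16. Microglia (14804 to 15271 and 15242 to 17651, 3 of 12 higher) overlapped. Meningeal fibroblast markers were at 8774 to 10782 in air and 11358 to 17205 in hyperoxia, with 7 of 10 higher. Choroid plexus markers were at 812 to 1699 in air and 726 to 983 in hyperoxia libraries 1 and 2 but 8697 in hyperoxia library 3, with 2 of 12 called higher. Defining markers with a mean under 10 included Tagln of mural cells and Epb42 and Klf1 of the erythroid list, and Ahsp had no row. The part of these shifts in the values of the dismutases, catalase and the peroxiredoxins was not tested.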

How the data were processed

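Left hippocampi of 3 air-exposed and 3 hyperoxia-exposed mice were sequenced by the authors as strand-specific polyA libraries. Per the submitters' processing notes, FastQC, STAR 2.5.3a, HTSeq and DESeq2 were used. For the genome build, the annotation and the strand setting of the counting, nothing is given in the sources used here. The deposited signal is a normalized read count per gene and library, that is, reads divided by the authors by a size factor of that library. In every library 100% of these values lay within 0.01 of a whole number of reads, so reads were recovered, 30384052 to 38746972 per library. Replicates differed by more than counting noise (chi-square per gene 6.54 to 47.2), so none was merged. A deposited table of the authors' own comparison of the groups (means, fold changes, standard errors, p-values) was not used. The number of sample columns left unused was 0. Directions follow the group named in the column.

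Differences were tested with limma 3.58.1 in R 4.3.3 (eBayes with a trend, two-sided) after adding 1 to each deposited value and taking log2. The 17778 genes whose mean was 10 or more were tested, and p-values were Benjamini-Hochberg adjusted over all of them. Fold changes on this scale understate changes of low genes. Single values had an exact two-sided permutation test. Alternatives were TMM scaling, quantile normalization, a pseudocount of 0.5 or 5, a minimum mean of 50 or none, no trend, edgeR 4.0.16 and DESeq2 1.42.0 on recovered reads, each library left out, and values corrected for a smooth trend per library on length and GC content of transcripts (mgcv 1.9.3). The version of this correction with the APPRIS principal transcript was added after seeing the data, since the longest Sod1 transcript far exceeds its principal one. The code was tested on simulated data. Positions and lengths came from GENCODE M21 on GRCm38, which held 99.68% of the identifiers. Tables were handled with Python 3.11.15 and pandas 2.3.3.

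All 10 genes are named. Of each pathway list, up to 4 called genes with the largest absolute log2 fold change are named, and always Ccs, Atox1, Txn1, Txn2, Txnrd1, Txnrd2, Srxn1, Gpx1, Gpx4, Nfe2l2, Keap1 and Pex5. The 10 genes, lists and rules were chosen with earlier results of these data known.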

Additional observations from a re-analysis of the deposited data

How the results depend on the processing

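Over the 10 genes and 17 alternatives there were 170 comparisons with the main analysis. In 134 the direction and the side of the threshold held, in 30 a call was lost, in 4 one was gained, and in 2 the direction changed, both for Sod2 after removal of the length and GC trends, at -0.0072 with the longest and -0.033 with the principal transcript. The number of the 10 genes called was 6 in the main analysis, 1 (Sod1) in limma without the mean-variance trend, and 1 to 8 on leaving out 1 library, lowest without air library 1 or 3 and highest without hyperoxia library 2. Of all tested genes, 30.5% were called in the main analysis and 23.8% in limma without the trend. Leaving out 1 library gave 3048 to 7756 calls over all genes (17.1% to 43.6%) against 5425, and over the 7 pathway lists 16 to 48 against 27. Fewer libraries enter these fits by construction. Other causes were not tested. Of the 10 genes, 6 kept their place in the order of levels per length with the longest transcript and also 6 with the principal transcript. With 3 libraries a group, single outlying libraries were not tested for. The recovered reads of Prdx4, at most 283 in a library, leave a larger counting error than those of the other genes. No paired analysis was possible because the libraries' numbers in the table do not identify animals, and the labels number the animals of both groups in 1 series without shared numbers.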
